A study of Rattus norvegicus with 35 samples.

Results

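The microRNA signal of unoperated thoracic spinal cord was described in 5 adult female Wistar rats, named CT1 to CT5, of the 35 animals of the series. These rats received no surgery and no treatment, and a piece of cord from the level at which the other animals were operated was kept in RNAlater until total RNA was extracted. The RNA of each animal was labelled with the dye Hy3 and hybridised to 1 Exiqon miRCURY LNA array, which carries short capture probes stiffened by locked nucleic acid. The other 6 groups of the study, rats with a contused cord or with laminectomy alone, entered only the joint scaling of the arrays and are not compared here. The members described are the 349 names on the array that include a rat microRNA, of 1766 names in all, each printed in 4 spots. Levels are VSN values, a log2-like scale fitted over the 35 arrays. On it 1 unit is close to a factor of 2 in signal for bright names. For dim names near the background it need not be, so their differences are not fold changes. Shares of signal are linear, background-subtracted values divided by the sum over the 349 rat names of the same array. A probe's brightness depends on how well it binds and how well its target is labelled as well as on the amount of target, so an order of names is an order of probe signals and not of molecules. The 5 arrays were scanned on 5 different days, so animal and scan day cannot be told apart.

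MicroRNAs are short RNAs cut from hairpin precursors and loaded into Argonaute proteins, which they guide to messenger RNAs to repress them. Bases 2 to 8, the seed, carry most of the target pairing, and microRNAs with one seed form a family. Each hairpin can release a strand from its 5′ arm and one from its 3′ arm, and in the nomenclature of this array a star marks the strand that was thought to be the minor one. In the nervous system miR-124 and miR-9 are known from neurons and neural progenitors, miR-219 and miR-338 from oligodendrocytes, and let-7 from differentiated cells in general.

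A RefSeq mature sequence (build GRCr8) was found for 262 of the 349 rat names, 68 by the exact name and the rest through the arm. The sequences of the matched names among the 20 brightest are shown because they carry much of the signal described below. The remaining let-7 relatives and miR-29b, miR-29c and miR-23a were added to complete their families. Capitals mark the seed, and the lines are grouped by it.
let-7a: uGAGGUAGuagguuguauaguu
let-7f: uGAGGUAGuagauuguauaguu
let-7c: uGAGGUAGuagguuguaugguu
let-7b: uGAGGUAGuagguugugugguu
let-7e: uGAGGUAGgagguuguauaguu
let-7i: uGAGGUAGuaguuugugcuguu
let-7d: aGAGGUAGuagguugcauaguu
miR-98: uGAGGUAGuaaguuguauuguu
miR-125b-5p: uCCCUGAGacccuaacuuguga
miR-30c: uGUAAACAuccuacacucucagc
miR-30a: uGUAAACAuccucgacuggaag
miR-26b: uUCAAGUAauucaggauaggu
miR-26a: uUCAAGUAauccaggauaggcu
miR-29a: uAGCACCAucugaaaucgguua
miR-29b: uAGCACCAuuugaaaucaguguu
miR-29c: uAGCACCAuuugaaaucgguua
miR-23b: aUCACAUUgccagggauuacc
miR-23a: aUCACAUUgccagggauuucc
miR-451: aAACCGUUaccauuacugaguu
miR-24: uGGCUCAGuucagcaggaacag
miR-22: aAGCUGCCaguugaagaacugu

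The brightest names in unoperated cord were miR-125b-5p, a brain-rich member of the lin-4 family, followed by let-7a, miR-124 and let-7f. The level of miR-125b-5p was 14.60, 14.16, 14.49, 14.62 and 14.48 in CT1 to CT5, with a mean of 14.47 ± 0.18 (SD, n = 5). The level of let-7a was 15.03, 13.69, 14.75, 14.01 and 14.43, with a mean of 14.38 ± 0.54. The neuronal miR-124 was at 14.61, 13.83, 14.05, 14.34 and 14.24, with a mean of 14.21 ± 0.29. let-7a was the brightest name in CT1 and CT3 and miR-125b-5p in CT2, CT4 and CT5, and the 3 names lay among the 5 brightest of every animal. let-7f had a mean of 14.20 ± 0.40 and let-7c of 13.55 ± 0.69. Below them came miR-29a at 13.41 ± 0.27, miR-26b at 13.24 ± 0.22 and miR-30b-5p at 13.13 ± 0.53. Of these, miR-29a is known as a repressor of collagen and other matrix messages.

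**Figure D1:**
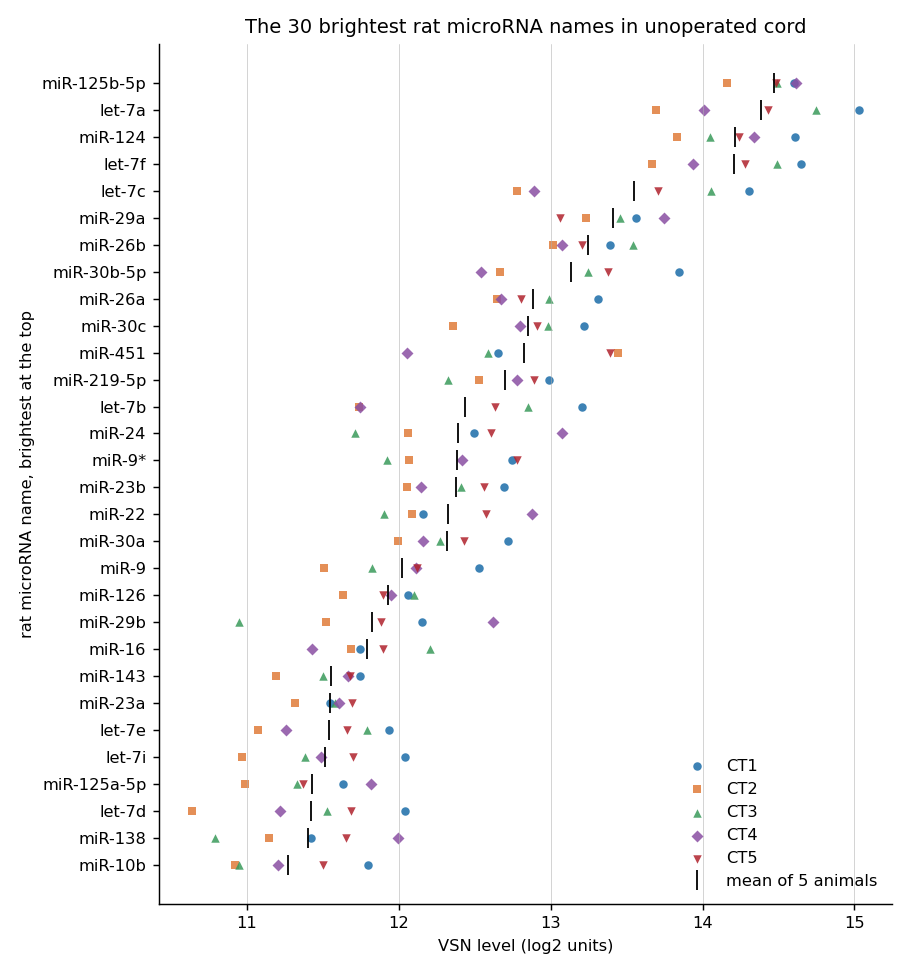
VSN level in log2 units (x axis) of the 30 rat microRNA names with the highest means (y axis), with 1 point for each of the 5 unoperated animals and a black tick for their mean. The points of neighbouring names overlap, from miR-125b-5p at a mean of 14.47 down to miR-10b at 11.27, and the let-7 points are highest in CT1 and lowest in CT2.

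The next 12 names included markers of several cell types. They were miR-26a at 12.88 ± 0.27, miR-30c at 12.85 ± 0.32, the erythrocyte microRNA miR-451 at 12.83 ± 0.59 and the oligodendrocyte microRNA miR-219-5p at 12.70 ± 0.27. let-7b was at 12.43 ± 0.66, miR-24 at 12.39 ± 0.52, miR-9* at 12.38 ± 0.39 and miR-23b at 12.37 ± 0.27. miR-22 was at 12.32 ± 0.40, miR-30a at 12.31 ± 0.28, miR-9 at 12.02 ± 0.38 and the endothelial miR-126 at 11.93 ± 0.19. Of the 20 names with the highest means, 16 were among the 20 brightest of every animal, and 24 names reached the 20 brightest of at least 1 animal. The order within the 20 was not fixed: of 19 neighbouring pairs, only let-7f over let-7c (by 0.66 ± 0.30) and miR-30a over miR-9 (by 0.30 ± 0.18) kept their order in 5 of 5 animals, and only these differed by more than the SD of the difference. The leading position itself was not resolved, since miR-125b-5p exceeded let-7a by 0.09 ± 0.45 and was the brighter in 3 of 5 animals. Ranks ranged from 5 to 19 for miR-451 and from 7 to 23 for miR-24 between animals, against 1 to 4 for miR-125b-5p.

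The signal was concentrated in few names. The brightest name of each animal held 8.16% ± 0.82 of the rat signal, the 3 brightest 21.2% ± 1.88, the 20 brightest 64.1% ± 2.05 and the 100 brightest 92.3% ± 0.98 (mean ± SD, n = 5). The 10 names with the highest mean shares held 45.9% ± 2.89. In CT1 to CT5, 11, 13, 10, 13 and 13 names sufficed for 50% of the rat signal. Single names held 7.42% ± 0.80 for miR-125b-5p, 7.10% ± 1.64 for let-7a, 6.20% ± 0.63 for miR-124, 6.20% ± 0.91 for let-7f and 4.08% ± 1.33 for let-7c. No rat spot was saturated on any of the 5 arrays.

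**Figure D2:**
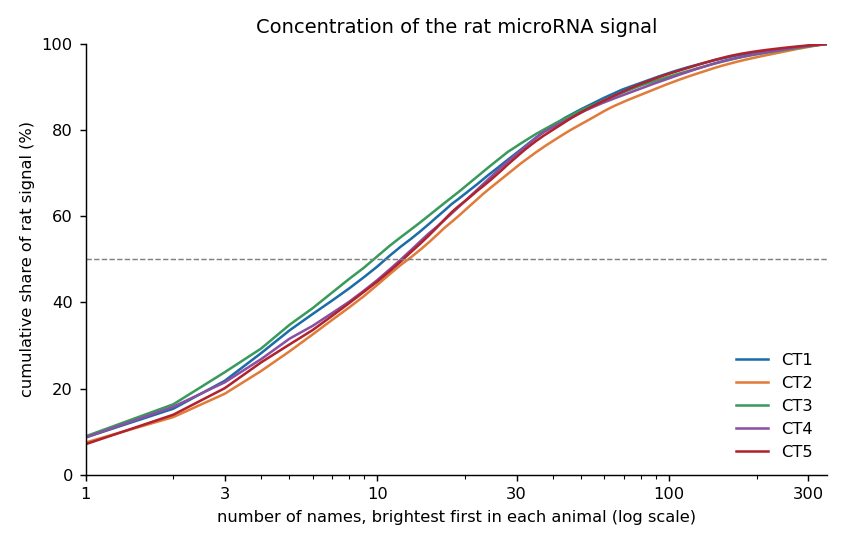
Cumulative share of the rat signal in percent (y axis) against the number of names, brightest first in each animal (x axis, log scale), with 1 line per unoperated animal and a dashed line at 50%. The 5 lines cross 50% after 10 to 13 names and reach 90.8 to 93.3% at 100 names.

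Of the 349 rat names, 190 were above background in every animal. Detection required that over 0.5 of the usable spots of a name exceed the mean of that array's negative control spots by 2 SD. In CT1 to CT5, 218, 223, 194, 295 and 251 of the 349 rat names were detected. Across animals, these 190 names (54.4%) were detected in all 5, 17 in 4, 25 in 3, 23 in 2, 42 in 1 and 52 in none. CT4 stood out with 295 names, and 40 of the 42 names detected in a single animal were detected there. The negative control spots of CT4 also had the smallest SD, 7.45 intensity units, against 12.7, 16.0, 12.9 and 8.38 in CT1, CT2, CT3 and CT5. With 1 common SD of 12.7 for all arrays, a setting chosen after the data were seen, 224, 252, 200, 271 and 240 names were detected and 195 in all 5 animals. CT3 had the lowest summed rat signal, 182808 intensity units against 296897 to 357680 in the other animals, and it was the animal that missed 13 of the 17 names detected in 4. The green gain of the scanner was also lowest for CT3, at 590, 580, 550, 580 and 600 in CT1 to CT5. The part of the gain in signal and detection was not tested.

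Names at the limit were close to the level of the negative controls. On average over the 5 animals, miR-377 and miR-124* lay just above the limit, at 2.04 and 2.01 SD over the mean of the negative controls, and miR-196a* lay nearest to it. miR-137, miR-26b* and miR-30c-1* lay just below, at 1.92, 1.91 and 1.91 SD. Each of these 6 was detected in 1 or 2 animals. Among the names detected in 3 or 4 animals, the brightest were miR-495 (6.54 ± 0.86), miR-135b (6.32 ± 0.56), miR-374 (6.27 ± 0.44), miR-877 (6.21 ± 0.86) and miR-423 (6.05 ± 0.34), and all 5 were missed in CT3. The dimmest were miR-210 (4.95 ± 0.57), known as a hypoxia-induced microRNA, miR-872 (4.94 ± 0.78) and miR-130b (4.81 ± 0.33).

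Grouped by seed, the let-7 and miR-98 family was the largest source of signal. All of its 8 names were detected in every animal, against 54.4% of all rat names. They held 26.5, 17.5, 27.4, 17.7 and 22.4% of the rat signal in CT1 to CT5, a mean of 22.3% ± 4.68. CT1 and CT3 were high and CT2 and CT4 low. The miR-125 group, which here includes miR-351, held 8.41% ± 0.96, of which miR-125b-5p gave 7.42% and miR-125a-5p 0.92% of the rat signal. The miR-30 group of 6 names held 8.02% ± 0.80. miR-30b-5p and miR-30d were placed in it by name, and miR-384-5p joined it by its seed. The miR-26 pair held 5.66% ± 0.57, the 3 miR-29 names 5.28% ± 1.41 and the miR-23 pair 2.72% ± 0.15. miR-451 (2.60% ± 1.30) and miR-24 (1.85% ± 0.70) were alone with their seeds. These 8 groups held 56.8% ± 2.80 of the rat signal. Another 18.1% ± 1.41 belonged to names that were placed in no seed group, miR-124, miR-219-5p, miR-9 and miR-9* among them. The order of groups therefore leaves these names out. miR-124 alone held 6.20%, more than the miR-26 pair, and miR-219-5p held 2.19%, more than miR-24.

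**Figure D3:**
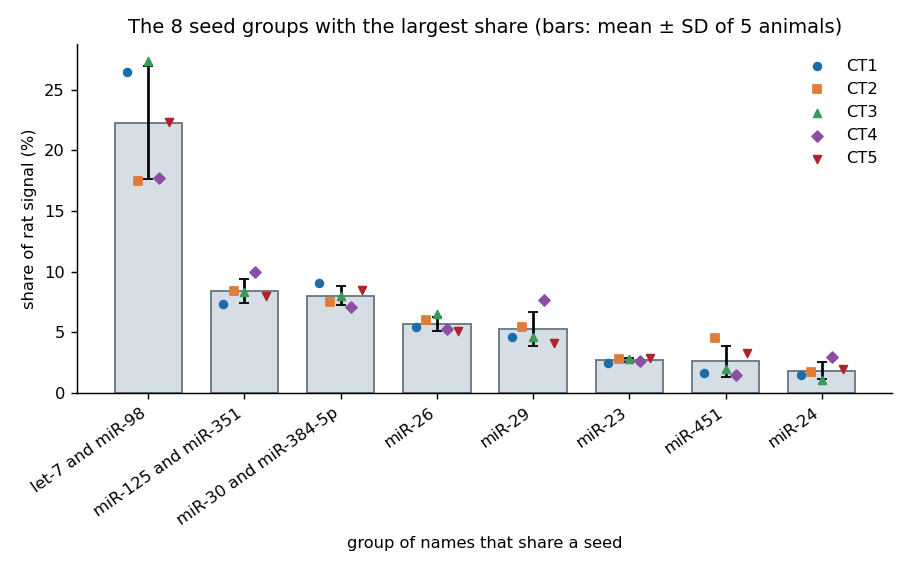
Share of the rat signal in percent (y axis) of the 8 seed groups with the largest mean share (x axis), with bars for the mean, error bars for the SD of 5 animals and 1 point per unoperated animal. The let-7 and miR-98 points run from 17.5 to 27.4%, while the miR-23 points stay between 2.51 and 2.91%. Names placed in no seed group, miR-124 among them, are not shown.

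The let-7 names differ by few bases outside the seed. Counted from 1 at the 5′ end and written with the let-7a base first, let-7f differs from let-7a by G12A, let-7c by A19G, let-7e by U9G, let-7b by A17G and A19G, let-7d by U1A and U16C, and miR-98 by G11A and A19U. let-7i differs by 4 bases, G12U, A17G, U18C and A19U. Their levels nonetheless spread from 14.38 for let-7a to 11.54 ± 0.36 for let-7e, 11.51 ± 0.40 for let-7i, 11.42 ± 0.53 for let-7d and 8.97 ± 0.48 for miR-98. How much signal crosses between probes whose targets differ by 1 base was not tested. All 8 were highest in CT1 and lowest in CT2, an order shared by 50 of the 190 names detected in all animals (26.3%).

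Close relatives in other families were also unequal in signal, in the same direction in every animal. The base of the name after "from" is again written first. miR-29c differs from miR-29a by C10U, and miR-29a exceeded it by 3.35 ± 0.43. miR-30e differs from miR-30a by C13U, and miR-30a exceeded it by 1.34 ± 0.61. miR-23b exceeded miR-23a, from which it differs by U19A, by 0.83 ± 0.22, and miR-26b exceeded miR-26a by 0.36 ± 0.17. miR-125b-5p exceeded miR-125a-5p by 3.04 ± 0.16. An exception was miR-107, which differs from miR-103 by G22C, with 0.62 ± 0.44 more for miR-103 and the same order in 4 of 5 animals. Each of these differences is between probes and carries their unequal binding.

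Strands marked as minor carried little of the signal. The 58 star-named strands held 4.39% ± 0.38 of it, with 4.19, 4.78, 3.84, 4.47 and 4.65% in CT1 to CT5. Of the 58, 23 were detected in all animals, against 54.4% of all rat names. The 230 names with neither star nor arm held 78.2% ± 1.01, and 136 of them were detected in all animals. The 61 names with an arm held 17.4% ± 0.66. Among names matched to RefSeq, 124 from the 5′ arm held 55.9% ± 3.34 and 118 from the 3′ arm 21.7% ± 2.68. The remaining 107 names, which were given no RefSeq arm, held 22.4% ± 1.24 and are in neither class. They include miR-124, miR-30b-5p and miR-219-5p, so the 2 arm shares are not a full split of the signal. The 3′ share was highest in CT4, at 25.5%, and lowest in CT1, at 19.2%.

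The main name of a strand pair was taken as the one without a star or, where both names carry an arm, as the brighter. For 72 pairs of strands of one hairpin the main name was detected in all animals. The other strand was then detected in all animals in 31 pairs, in 1 to 4 animals in 27 and in none in 14. In 21 of the 31 pairs the other strand was star-named, and there the main name was brighter in 5 of 5 animals in 14 pairs, the star-named strand in 5, and the order was mixed in 2, with a median difference of 2.49. The other 10 pairs carry arms, so their direction is set by the choice of the brighter name, and their median difference was 1.72. The largest differences between detected strands were 8.16 ± 0.30 for miR-125b-5p over miR-125b-3p, 6.78 ± 0.35 for miR-29a over miR-29a*, 5.93 ± 0.75 for miR-30b-5p over miR-30b-3p, 5.81 ± 0.24 for let-7e over let-7e* and 5.47 ± 0.64 for let-7b over let-7b*. In 5 pairs the star-named strand was the brighter in 5 of 5 animals. miR-140* stood at 9.66, 9.16, 9.37, 9.01 and 9.31 in CT1 to CT5, against 7.83, 7.14, 6.84, 7.51 and 7.85 for miR-140, a mean excess of 1.87 ± 0.44, and the levels did not overlap. miR-140 is known from cartilage.

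The other 4 such strands were nearer to their partners. miR-330* exceeded miR-330 by 0.99 ± 0.15, miR-136* exceeded miR-136 by 0.62 ± 0.38, and miR-204* exceeded miR-204 by 0.51 ± 0.44. miR-204 minus miR-204* was only -0.005 in CT1 and -0.08 in CT3. Both are smaller than the median SD of 0.16 over the spots of 1 array, so the order in those animals is not secure. miR-9* stood at 12.75, 12.06, 11.92, 12.41 and 12.78 in CT1 to CT5, against 12.53, 11.51, 11.82, 12.11 and 12.12 for miR-9, an excess of 0.37 ± 0.24. The difference ran the same way within each animal although the ranges of the strands overlapped between animals. In CT3 miR-9 minus miR-9* was -0.10, also smaller than that spot SD. Both strands of miR-9 are known to act in neural cells. miR-34c* exceeded miR-34c by 1.54 ± 0.94 in 4 of 5 animals, with CT3 as the exception, and miR-129 and miR-129* did not separate, at 8.02 ± 0.40 and 8.10 ± 0.49. The names miR-872* and miR-363* were detected in all animals while miR-872 was detected in 3 and miR-363 in 1. Those 2 star strands had levels of 7.75 ± 0.14 and 5.97 ± 0.32.

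**Figure D4:**
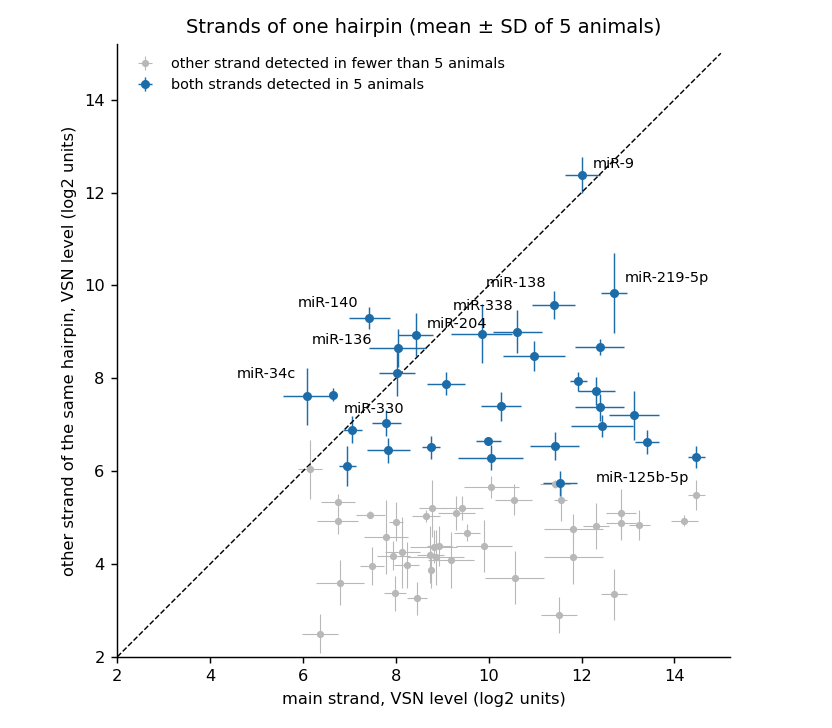
VSN level in log2 units of the other strand of a hairpin (y axis) against that of its main strand (x axis), with points for the mean and bars for the SD of 5 unoperated animals, blue where both strands were detected in all 5 and grey where the other was not, and labels that name the main strand. Most points lie far below the dashed line of equal level, and miR-9, miR-140, miR-136, miR-204, miR-330 and miR-34c lie above it, with the unlabelled miR-129 just over the line.

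Several of the bright names come from shared loci, taken here as RefSeq hairpins of GRCr8 on one strand with gaps of at most 10 kb. The let-7a, let-7f and let-7d hairpins lie at chr17:16320133-16322357 (+ strand), and names with a copy there held 14.2% ± 2.66 of the rat signal. let-7a has another copy on chromosome 8 and let-7f on chromosome X, which the probes cannot tell apart. The let-7e, miR-125a and miR-99b hairpins at chr1:67350064-67350759 (+ strand) gave 6 rat names with 2.33% ± 0.16 of the signal. Of the 6, 5 were detected in all animals, against 54.4% of all rat names. The 2 loci of miR-23, miR-24 and miR-27 at chr17:1818669-1819482 and chr19:40859455-40859843, both on the − strand, share miR-24. Names with a copy in the first held 3.77% ± 0.65 and in the second 3.08% ± 0.80, with miR-24 counted in both.

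Large clusters held little of the signal. At chr6:134543445-134579838 (+ strand), in the imprinted Dlk1-Dio3 region, 26 rat names were matched, of which 14 were detected in all animals and 2 in none, near the 54.4% detected in all animals over all rat names, and the 26 held 2.09% ± 0.26 of the signal. The brightest of them were miR-494 and miR-329. The neighbouring group at chr6:134298084-134331416 added 6 names, 4 of them detected in all animals, led by miR-434 at 10.78 ± 0.34. The miR-17-92 cluster at chr15:98587848-98588632, known for its part in cell proliferation, gave 7 names. Names with a copy there held 0.470% ± 0.103 of the signal. Of the 7, 4 were detected in all animals and 3 in none, against 54.4% and 14.9% of all rat names. miR-17-5p, miR-19b and miR-92a also have copies on chromosome X, which the probes cannot tell apart. The miR-290 group at chr1:74877973-74880135 (− strand), related to the pluripotency-linked cluster of mouse embryonic stem cells, had 1 of 5 names detected in all animals, against 54.4% of all rat names.

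Markers of the cells of the spinal cord were detected over a wide range of levels. Of 11 neuronal names, 10 were detected in all animals, against 54.4% of all rat names, and miR-137 in 2, and together they held between 9.01 and 12.6% of the rat signal. After miR-124, miR-9* and miR-9 the brightest of them was miR-138 at 11.40 ± 0.46, but the median of the list was 8.10 and miR-132 lay at 6.10 ± 0.25. The study's discussion associates miR-138 with oligodendrocytes as well. All 4 names of the oligodendrocyte list, strands of miR-219 and miR-338, were detected in all animals and held between 2.43 and 3.73%. Both endothelial strands, miR-126 and miR-126*, held 1.37% ± 0.13. Of the 5 mesenchymal and smooth muscle names, 4 were detected in all animals, with between 1.04 and 1.37%, led by miR-143 at 11.55 ± 0.22 and with a list median of 7.47. In such bulk tissue, fewer cells of a type and less RNA per cell cannot be told apart.

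Names typical of epithelium and liver were at or near background, and those of skeletal muscle were dim. Over all rat names, 54.4% were detected in all animals and 14.9% in none. Of 7 epithelial names none was detected in all animals and 4 in none, namely miR-141, miR-200c, miR-200a and miR-429, and the sum of the 7 was between 0.0633 and 0.118% of the rat signal. miR-203 was the exception, detected in 4 animals at 5.72 ± 0.91. The liver microRNA miR-122 was detected in 2 animals, at 5.04 ± 0.38. Of the 4 skeletal muscle names only miR-133a was detected in all animals, while miR-206 (5.96 ± 0.61) and miR-133b (5.68 ± 0.24) were detected in 4 and miR-1 in 2, and the sum was between 0.130 and 0.165%. miR-133a stood at 8.44, 6.90, 7.99, 7.23 and 7.67 in CT1 to CT5, and miR-1 at 6.25, 3.00, 4.38, 4.17 and 4.15, both highest in CT1. CT1 was also the highest animal for 93 of the 190 names detected in all animals (48.9%). Of the microRNAs encoded between Hox genes, which mark position along the body axis, miR-10b (11.27 ± 0.38) and miR-10a-5p (10.54 ± 0.40) ranked 30 and 39, while miR-196b was detected in 4 animals and miR-196a (5.30 ± 0.42) in 3.

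Names known from blood cells were detected in these unoperated cords. The study's methods describe perfusion only for separate animals used for histology. Which cells the signal of these names came from was not tested. miR-451 stood at 12.65, 13.44, 12.59, 12.05 and 13.39 in CT1 to CT5, and miR-144, made from the same erythroid locus on chromosome 10, at 10.74, 11.69, 11.97, 9.04 and 11.02. Both were lowest in CT4, while CT2 was highest for miR-451 and CT3 for miR-144. Together they held between 1.66 and 5.90% of the rat signal. All 5 myeloid and lymphoid names with a rat probe were detected in every animal, against 54.4% of all rat names, and held between 0.627 and 1.25% of the signal. The brightest were miR-142-3p at 9.85 ± 0.66 and miR-142-5p at 8.96 ± 0.63, and miR-223, known from granulocytes, was at 7.75 ± 0.50. miR-486 and miR-155 have no rat name on the array.

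Animals resembled each other closely across names. Over the 190 names detected in all animals, the Pearson correlation of levels between 2 animals ranged from 0.954 to 0.988 over the 10 pairs, with a median of 0.970. These correlations run across names, which are not replicates and share the affinity of their probes. The SD between animals had a median of 0.36 log2 units, with quartiles of 0.27 and 0.46, against a median of 0.16 for the SD over the spots of 1 array. It exceeded the spot SD for 167 of the 190 names. Part of the difference ran across whole arrays: the median deviation of the 190 names from their means was 0.29 in CT1, -0.27 in CT2, -0.04 in CT3, -0.07 in CT4 and 0.13 in CT5, and with each array centred on its median the median SD was 0.30. The rat names also held unequal parts of the signal of all microRNA and small RNA names on the array, 50.8, 38.0, 49.1, 38.9 and 45.3% in CT1 to CT5. CT1 and CT3 were high and CT2 and CT4 low, as for the let-7 and miR-98 share.

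**Figure D5:**
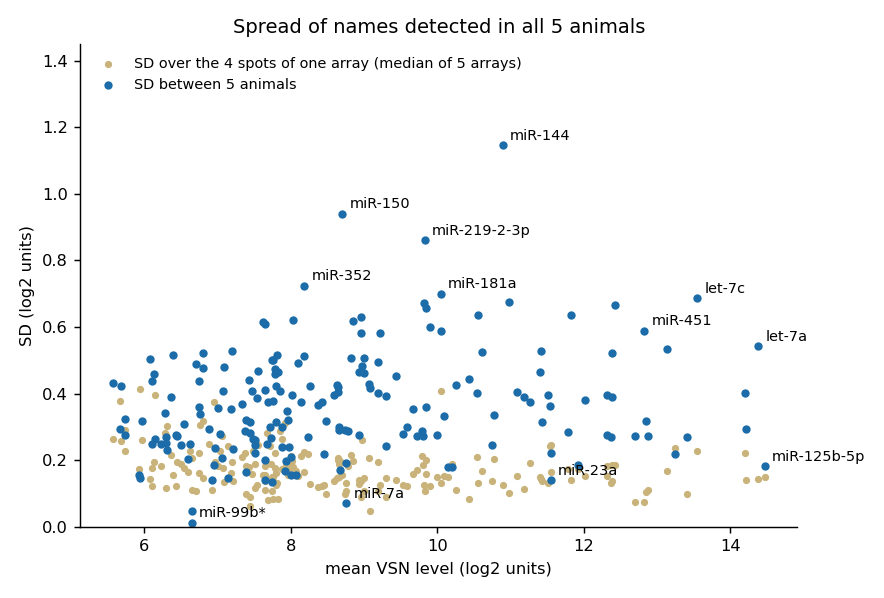
SD in log2 units (y axis) against the mean VSN level in log2 units (x axis) for the 190 rat names detected in all 5 unoperated animals, with blue points for the SD between animals and tan points for the SD over the spots of 1 array. miR-144, miR-150 and miR-219-2-3p lie highest at 1.15, 0.94 and 0.86, and most tan points lie below the blue ones.

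The names that varied most between animals were miR-144 (SD 1.15), miR-150 (0.94), miR-219-2-3p (0.86), miR-352 (0.72) and miR-181a (0.70). miR-150, a lymphocyte microRNA, stood at 8.81, 8.77, 7.12, 9.38 and 9.45 in CT1 to CT5 and was low in CT3. miR-219-2-3p, the partner strand of miR-219-5p, stood at 10.79, 9.63, 8.87, 9.21 and 10.66 and was high in CT1 and CT5. After centring each array on its median the SD was 1.20 for miR-144, 0.87 for miR-150, 0.67 for miR-219-2-3p and 0.50 for miR-181a. The names that varied least were miR-99b* (6.65, SD 0.01), miR-330 (6.65, SD 0.05), miR-7a (8.76, SD 0.07), miR-872* (7.75, SD 0.14) and miR-23a (11.55, SD 0.14). The spot SD of miR-99b* was 0.21, larger than its SD between animals, so its agreement is closer than the spots can resolve. Names that vary and are dim are missed in some animal and are then not among the 190.

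Some families were high in the same animals. All 4 names of the oligodendrocyte list, which are strands of miR-219 and miR-338, had CT1 and CT5 as their highest animals. So did 66 of the 190 names (34.7%). miR-138, listed here as neuronal, is also associated with oligodendrocytes in the study's discussion, and it was highest in CT4. miR-338 stood at 11.27, 10.21, 10.36, 10.15 and 11.09 in CT1 to CT5. All 5 names of the miR-30 list were highest in CT1, as were 93 of the 190 (48.9%). The 3 miR-29 names were highest in CT4, as were 27 of the 190. In CT4 miR-29a was at 13.74, miR-29b at 12.62 and miR-29c at 11.08. Of the 50 brightest names, 10 were highest in CT4, the others being miR-125b-5p, miR-125a-5p, miR-24, miR-22, miR-138, miR-34a and miR-10a-5p, against 31 in CT1. Because each animal was 1 array scanned on its own day, the part of the array in these patterns was not tested.

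The detected names differed somewhat in base composition from the others. Among names matched to RefSeq, the mean GC content was 45.4% ± 8.62 (SD over names) for 146 names detected in all animals, 50.2% ± 10.4 for 83 detected in 1 to 4 and 51.7% ± 11.5 for 33 detected in none. A U as the first base, which the Argonaute pocket is known to favour, was present in 83 of the 146 (56.8%), 27 of the 83 (32.5%) and 16 of the 33 (48.5%). The 14 matched names among the 20 brightest had U first in 11 cases. Across the 146 names, GC content and mean level had a Pearson correlation of -0.19 and a Spearman correlation of -0.18, as a description of probes that share a platform.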

How the data were processed

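Total RNA of each animal was labelled with Hy3 and scanned with a GenePix scanner. The deposited scanner files hold intensity values, green (532 nm) foreground and local background medians of 9360 spots per array, to which the authors applied no normalization. In the file of 1 injured animal the deposited values have decimal commas and were read as the same quantity. Each spot also has a quality score in these deposited files, -100 where it was judged bad. The deposited value table holds log2 values made by the authors with VSN, and it served as an alternative. On the 5 control arrays these values followed the order of the green foreground median without background subtraction.

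For the main values the local background was subtracted and bad spots were dropped. VSN was then fitted in Python 3.11.15 on the 7063 microRNA and small RNA spots of the 35 arrays, keeping 0.9 of the spots. It was written from its published likelihood and tested on simulated data. The level of a name was the median of its 4 spots. Normexp (offset 50) and quantile normalization by limma 3.58.1 in R 4.3.3 were an alternative. VSN fitted on the 5 control arrays alone was another, and the 20 brightest names kept their ranks under it. Replicate numbers come from the sample titles. The signal over 26 to 28 negative control spots (the detection limit lay between 39.8 and 77.4 intensity units) and the number of arrays limit the precision.

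The names given singly are the 20 brightest, the 5 most and 5 least variable, strand pairs at either end of the strand difference or with a brighter star strand, names near the detection limit, the members of the lists of cell type and family names, and the 8 leading seed groups. miR-34a, miR-363, miR-363*, miR-434, miR-494, miR-329, miR-103 and miR-107 were added after their values were seen where they lead a group or pair. Arms of names without one were taken from the human or mouse part of the probe name (26 names) or from the established main arm (168). The members and lists were chosen with earlier results of these data known. No groups were compared. Values over the 5 animals were screened for an outlying animal by Dixon's ratio of gap to range.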

Additional observations from a re-analysis of the deposited data

Results flagged for a closer look

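With 5 animals per value, 1 result had an animal far from the others, by a gap to the nearest animal of more than 0.71 of the whole range. The level of miR-29c was 11.08 in CT4 and between 9.55 and 9.92 in the other 4 animals. In all, 102 values were examined in this way (levels of the named microRNAs detected in all animals, measures of the arrays and shares of signal). For independent, normally distributed values chance alone marks about 1 in 20. The 102 values share the same 5 arrays and are not independent, so 1 mark cannot be weighed against that rate.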

How the results depend on the processing

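Of 97 summary values recomputed under an alternative, 90 moved by no more than the spread between animals (counts by at most 1.5 times). Some of these could not move. Scaling to the 75th percentile multiplies a whole array, which leaves shares and the number of names for 50% of the signal unchanged. Without background subtraction the 10 brightest held 42.7% of the rat signal, 13.6 names on average held 50% of it, and star-named strands held 5.27%. Star-named strands held 5.03% after normexp and quantile normalization. The median SD between animals was 0.27 after normexp and quantile normalization, 0.29 after scaling to the 75th percentile and 0.26 in the deposited values. Without each animal in turn, the number detected in all remaining animals was 190 to 203, the number detected in at least 3 was 207 to 232, and the let-7 and miR-98 share was 21.0 to 23.5%. With 3 SD as the limit, 169 names were detected in all animals. At least 19 of the 20 brightest stayed among the 20 brightest without any 1 animal. No paired analysis was possible because no groups were compared.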
